A study of Acyrthosiphon pisum with 15 samples.

Results

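The sexual generation of the pea aphid, Acyrthosiphon pisum, was compared with its asexual generation across 15 whole-body RNA sequencing libraries, which are all the libraries of the series. Membership followed the morph given in the labels. The 9 libraries of the sexual generation were 3 of sexual females, 3 of winged males and 3 of wingless males, and the 6 asexual libraries were 3 of winged and 3 of wingless asexual females. Every morph was sampled from the clones F1, I18 and BK11, with 30 adults pooled per library, and clone entered each fit as a block. Sexual females and males had been reared at 15 °C under a day of 13 h light and 11 h dark, and asexual females at 18 °C under 16 h light and 8 h dark. Males and both asexual morphs were 2 days old as adults, and sexual females 2 to 6 days old. Generation, day length and temperature therefore changed together in these libraries and cannot be told apart, and the wider age range of sexual females cannot be told apart from their sex and reproductive mode. Each clone gave 1 library per morph, so p-values here are set against how far morph differences varied between clones and preparations. That spread was pooled over all morphs, and steady differences among clones were taken out by the block.

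As background, pea aphids reproduce without mating under long days, when each female bears live daughters from embryos that grow inside the body. Shortening days lead asexual mothers to bear a generation of egg-laying females and males, which mate and leave eggs that survive the winter. A whole-body library of an asexual female thus contains embryos, that of a sexual female contains ovaries with yolky eggs, and that of a male contains testes. In such bulk samples, fewer cells of a type and less RNA per cell cannot be told apart. The question put to the data was which gene models distinguished the sexual generation as a whole, by moving in the same direction in its females and its males.

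Values are normalised read counts per gene model, on the authors' scale and not divided by gene length, so levels are compared between libraries and not between gene models. Recovered whole reads ranged from 29233690 to 73961669 per library in the sexual generation and from 28721904 to 75066116 in the asexual generation. A gene model with no read in a library could have been at up to 3 reads there, which is a normalised count of 1.92 to 4.08 in sexual generation libraries and 1.63 to 5.95 in asexual libraries (counting error only). Fold changes and their standard errors are on the log2(normalised count + 1) scale, which understates changes near 0. A gene model was called at an adjusted p under 0.05 (limma, Benjamini and Hochberg over 20301 gene models). The files pair no identifier with a gene name. A RefSeq gene table matched 61 of the identifiers, of which 1 carried a gene symbol, Syt4, so the other gene models are given by identifier.

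Several libraries held traces of transcripts that are abundant in another morph. This was measured with gene models that were abundant in their own morph and low in F1 libraries of other morphs (for asexual markers, in F1 males). Their low levels in those F1 libraries are therefore fixed by the choice. The 10 markers of sexual females had a median level of 1.20% of their mean sexual female level in the BK11 winged male, 0.41% in the BK11 wingless male and 0.262% in the I18 winged asexual female, and of 0% in the I18 wingless male. The 22 male markers stood at 0.114% of their male level in the sexual female library of I18 and 0.109% in that of BK11. The 6 asexual markers stood at 1.70% of their asexual level in the BK11 library of sexual females and 1.08% in the I18 wingless male, against 0.14% or less in each of the other 7 libraries of the sexual generation. The I18 wingless male also had the fewest gene models at 0, at 0.929%, against 2.42% to 3.19% in the other males. The part of these traces in the results was not tested, and counts without these 6 libraries (the sexual females of I18 and BK11, the males of BK11, the I18 wingless male and the I18 winged asexual female) are given beside the counts by generation, by sex and in both sexes. The choice of sexual female and male markers meant that they could not pick out F1 libraries. The F1 sexual female held asexual markers at 0.14%, so the libraries kept are not known to be free of traces.

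The generation term was large. Of the total variation in log2 values over the gene models tested, generation took 32.9%, with libraries weighted equally, against 34.7% for sex within the sexual generation and 12.1% for clone. Wings took 3.86% in asexual females and 3.09% in males, and 13.5% was left. With both sexes weighted equally, 6479 gene models (31.9%) were higher and 4725 (23.3%) lower in the sexual generation, together 55.2% of those tested (limma). Without the 6 libraries above, 4172 were higher and 3704 lower. Differences of 8-fold or more in the full fit numbered 1255 on the higher and 873 on the lower side. The median log2 difference over all gene models tested was 0.20, so the median gene model was itself slightly higher in the sexual generation on the deposited scale. With trimmed mean (TMM) scaling that median was 0.06, and with upper quartile scaling 0.03. The excess of higher calls shrank with it, to 5787 higher and 5348 lower with TMM scaling and 5648 and 5502 with upper quartile scaling. On recovered reads, edgeR gave 5342 and 5279, and DESeq2 6848 and 5040.

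Most of these calls did not stand for both sexes. Sexual females alone differed from asexual females in 11058 gene models (54.5% of those tested), with 5938 higher (29.2%) and 5120 lower (25.2%), or 4294 and 4241 without the 6 libraries. Males differed from the same asexual libraries in 12581 (62.0%), with 7138 higher (35.2%) and 5443 lower (26.8%), or 5482 and 4724 without them. The split in sexual females depended on the scaling: 53.7% of their calls were higher on the deposited scale, 48.1% with TMM scaling and 37.4% with upper quartile scaling (4089 higher and 6839 lower). In males these shares were 56.7%, 53.5% and 62.1%. The split in males also depended on the filter. With a normalised count of 50, not 10, asked for in 3 or more libraries, 50.3% of male calls were higher (5199 higher and 5138 lower). Among the 11204 generation calls, 39.6% were called in the same direction in both sexes. A further 30.5% were called in males and not in sexual females, 25.2% in sexual females and not in males, 4.28% in opposite directions and 0.527% in neither. An average over the sexes therefore mixed several patterns, which are described in turn.

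**Figure D1:**
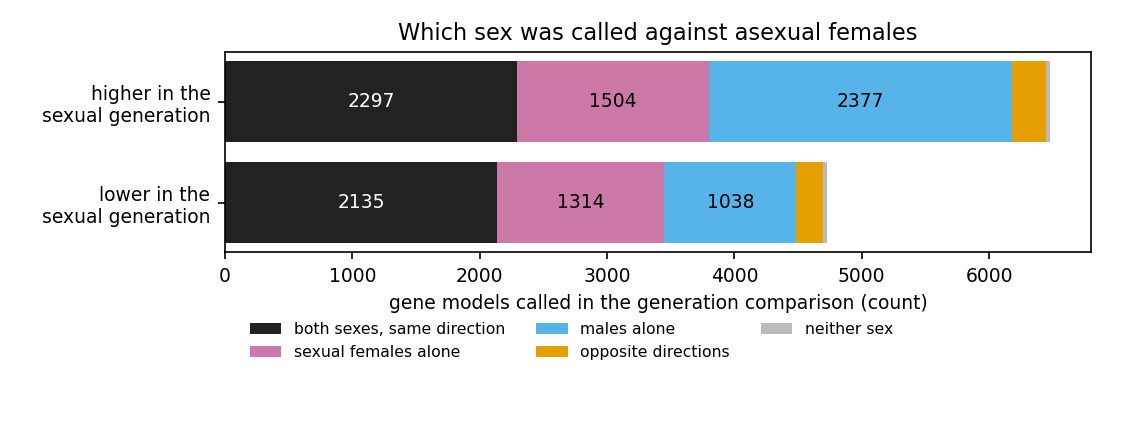
Gene models called in the comparison of the sexual with the asexual generation (x axis, count), split by which sex was itself called against asexual females, for higher (top) and lower (bottom) calls. Those called in both sexes in the same direction numbered 2297 among the higher and 2135 among the lower, and males alone supplied 2377 of the higher and 1038 of the lower.

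In all, 2297 gene models (11.3% of those tested) were higher and 2135 (10.5%) lower in both sexes. The count follows from the definition of the comparison, and it has no test of its own because both sexes were set against the same asexual libraries. All 4432 were also called in the generation comparison. A 2-fold difference in both sexes was reached by 1758 of the higher and 1651 of the lower gene models, an 8-fold difference by 311 and 441, and a 32-fold difference by 16 and 163. The very large shared differences thus lay mostly on the lower side. The lower gene models were also the more abundant, the median gene model having a mean of 1113 over all libraries, against 354.5 on the higher side and 238.9 over all gene models tested.

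Without the 6 libraries that held markers of another morph, 1055 gene models were higher and 1461 lower in both sexes, of which 1016 and 1377 belonged to the main lists. That fit kept 1 sexual female and 1 wingless male library, both of clone F1, each assumed to vary like the other groups. Without 4 libraries (the I18 wingless male and the 3 BK11 libraries of the sexual generation), 1606 were higher and 1643 lower. TMM scaling gave 1930 higher and 2444 lower, which included 1930 of the 2297 and all 2135. Upper quartile scaling gave 1849 higher and 2497 lower, which included 1664 of the 2297 and 1930 of the 2135.

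Gene models higher in both sexes were not rare transcripts in total. They held 14% to 22.7% of all normalised counts in sexual females, 14.2% to 17.9% in winged and 11.8% to 14.2% in wingless males, against 4.03% to 5.04% in winged and 2.40% to 2.74% in wingless asexual females. Gene models lower in both sexes held 16.4% to 17.4% in sexual females, 10.8% to 11.9% in winged and 11.5% to 23.1% in wingless males, against 42.9% to 44.1% in winged and 51.7% to 54.0% in wingless asexual females. The transcripts that made up much of an asexual library were a minor fraction of every sexual generation library. The highest of the sexual generation shares for the lower gene models, 23.1%, was in the I18 wingless male. These shares describe gene models chosen for their difference and are no test of it.

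**Figure D2:**
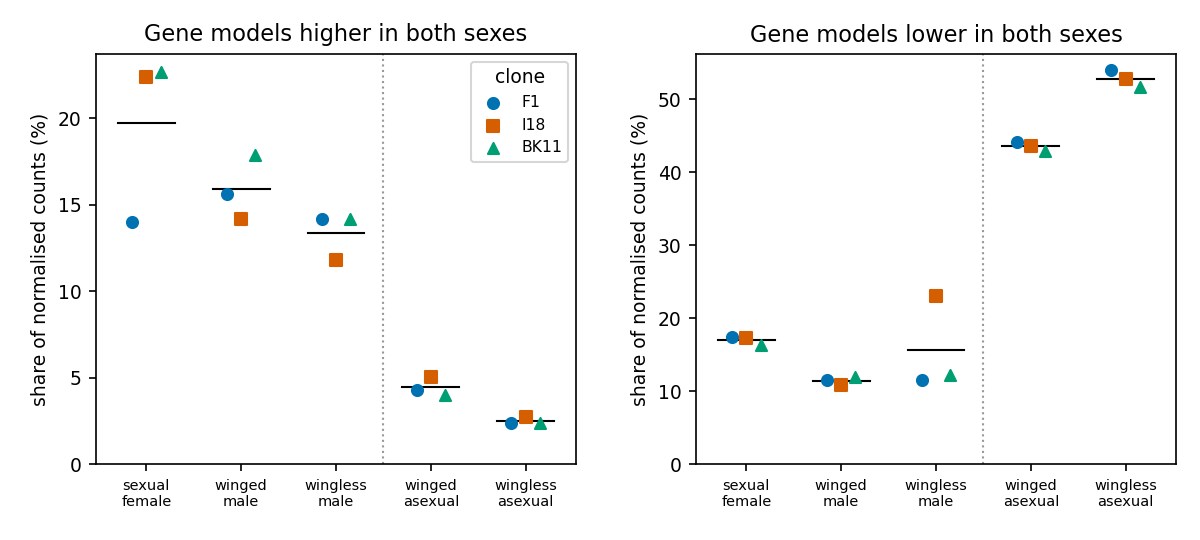
Share of all normalised counts (y axis, percent) held by the gene models called higher (left) and lower (right) in both sexes, for each library by morph and clone, with black bars at the mean of 3 clones and a dotted line between the generations. The higher set lay at 11.8% to 22.7% in sexual generation libraries and 2.40% to 5.04% in asexual ones, and the lower set at 10.8% to 23.1% and 42.9% to 54.0%.

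The gene model with the largest shared increase, by the smaller of its differences in the sexes, was ACYPI48808-RA. In the clones F1, I18 and BK11 it had normalised counts of 784.0, 19254 and 12746 in sexual females, 152.6, 109.1 and 324.8 in winged and 128.5, 4430 and 242.7 in wingless males. It had 2.15, 0.834 and 2.72 in winged and 0, 3.97 and 2.70 in wingless asexual females. All 9 sexual generation libraries lay above all 6 asexual ones, but the level within the sexual generation varied widely. Its log2 difference from asexual females was 11.06 ± 0.94 in sexual females (limma adjusted p = 1.7e-06) and 6.80 ± 0.77 in males (limma adjusted p = 9.1e-06). The I18 wingless male was the highest male library, at more than the F1 sexual female. ACYPI48808-RA was also the 1 gene model found by the rule first set for sexual female markers. That rule asked for a mean of at least 10000 in sexual females and at most 10 in every asexual library.

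ACYPI51835-RA was nearer to a common level in the sexual generation. It had 361.6, 300.5 and 766.8 in sexual females, 884.6, 738.1 and 1514 in winged and 550.2, 853.7 and 1468 in wingless males. It had 2.86, 3.34 and 2.17 in winged and 6.45, 7.94 and 17.1 in wingless asexual females. No library of either generation came close to those of the other. The fitted log2 difference was 6.11 ± 0.37 in sexual females (limma adjusted p = 1.9e-07) and 7.21 ± 0.30 in males (limma adjusted p = 6.3e-09), and males exceeded sexual females by 1.10 ± 0.37 (limma adjusted p = 0.017).

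On the lower side, ACYPI004638-RA was among the abundant transcripts of asexual females and nearly absent from several sexual generation libraries. It had 152.7, 1.92 and 2028 in sexual females, 11.5, 21.3 and 8.15 in winged and 22.1, 5458 and 35.8 in wingless males. It had 50408, 66082 and 70568 in winged and 221340, 158767 and 92227 in wingless asexual females. The groups did not overlap, and the highest sexual generation values lay in the I18 wingless male and the BK11 sexual female, the libraries in which the asexual markers were highest. This gene model is itself one of those markers. Set against asexual females, its log2 difference was −9.95 ± 1.86 in sexual females (limma adjusted p = 0.00064) and −10.97 ± 1.52 in males (limma adjusted p = 5.0e-05).

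ACYPI000840-RA, another of the asexual markers, had the same pattern. It had 115.2, 0.641 and 1961 in sexual females, 25.6, 6.65 and 20.4 in winged and 33.7, 1065 and 56.6 in wingless males. It had 51042, 53433 and 60416 in winged and 153886, 66594 and 53778 in wingless asexual females. The same libraries were highest within the sexual generation, and every asexual library exceeded every sexual generation library. On the log2 scale it differed by −9.86 ± 1.63 in sexual females (limma adjusted p = 0.00027) and −10.51 ± 1.33 in males (limma adjusted p = 2.4e-05).

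Moving in the same direction did not mean moving by the same amount. The sexes differed from each other in 52.9% of the gene models higher in both and in 57.0% of those lower in both, against 70.1% of all gene models tested (limma, males minus sexual females, with 39.9% higher and 30.2% lower in males). Of the higher ones, 568 had the larger increase in males and 647 in sexual females. Of the lower ones, 429 had the larger decrease in males and 788 in sexual females. These splits, and the shares that follow, were counted on the deposited scale alone. There the median of males minus sexual females over all gene models tested was 0.57. Over all tested, males were higher in 8105 and lower in 6131 gene models on that scale. With upper quartile scaling these counts were 10386 and 4227. The sexes lay within 0.5 on the log2 scale of each other in 29.0% of the higher and 25.6% of the lower gene models, and within 1 in 51.5% and 45.6%. Some of the higher gene models were at very unequal levels. In 41 of the 2297 the mean of the lower sex was under 1% of that of the other, and in 122 it was under 5%, of which 100 had the higher level in males by test. Of the 22 male markers named above, 12 were called higher in both sexes. Leaving out gene models with the lower sex under 5% of the other left 2175 higher.

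Gene models with a matched difference in the sexes, at least 4-fold in each and within 0.5 of each other on the log2 scale, numbered 234 among the higher and 154 among the lower. Matching was judged on the deposited scale alone and depends on it. With upper quartile scaling the median over all gene models moved from 0.02 to −0.42 in sexual females. In males it moved from 0.27 to 0.44. The most abundant of the higher matched gene models that also moved the same way in all 3 clones was ACYPI005296-RA. It had 15357, 27925 and 29917 in sexual females, 24037, 43303 and 27230 in winged and 30805, 23931 and 41067 in wingless males. It had 4293, 3471 and 12172 in winged and 4405, 4100 and 5864 in wingless asexual females. The lowest sexual generation library, the F1 sexual female, lay above the highest asexual library, the BK11 winged female. Its log2 difference from asexual females was 2.18 ± 0.31 in sexual females (limma adjusted p = 7.7e-05) and 2.57 ± 0.25 in males (limma adjusted p = 2.5e-06).

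The next, ACYPI002942-RA, had 21967, 22744 and 18053 in sexual females, 32366, 32775 and 24094 in winged and 29916, 19237 and 30745 in wingless males. It had 1089, 739.0 and 3572 in winged and 7418, 4411 and 6426 in wingless asexual females. Here too the generations did not overlap, and the winged asexual females were below the wingless ones in each clone. The fitted log2 difference was 2.84 ± 0.36 in sexual females (limma adjusted p = 3.3e-05) and 3.25 ± 0.29 in males (limma adjusted p = 1.3e-06).

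The most abundant gene model with a matched decrease was ACYPI085471-RA. It had 26356, 17329 and 19238 in sexual females, 17423, 14663 and 14871 in winged and 15521, 13964 and 16181 in wingless males. It had 72893, 78875 and 73076 in winged and 166548, 121478 and 200429 in wingless asexual females. The F1 sexual female was the highest of its sexual generation libraries, and winged asexual females lay between them and wingless asexual females. Set against asexual females, its log2 difference was −2.40 ± 0.15 in sexual females (limma adjusted p = 2.9e-07) and −2.83 ± 0.13 in males (limma adjusted p = 7.9e-09). The small further decrease in males, −0.42 ± 0.15, passed the threshold (limma adjusted p = 0.027).

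ACYPI008694-RA had matched log2 differences in the sexes but not matched libraries. It had 39.3, 0.641 and 104.2 in sexual females, 2.56, 82.5 and 0 in winged and 0, 19273 and 3.47 in wingless males. It had 14153, 13849 and 15372 in winged and 54138, 18409 and 2627 in wingless asexual females. The I18 wingless male lay within the range of the asexual females, so the generations overlapped. On the log2 scale it differed by −9.53 ± 2.42 in sexual females (limma adjusted p = 0.0051) and −9.68 ± 1.98 in males (limma adjusted p = 0.001). Without the I18 sexual female the difference in sexual females was −6.16 (limma adjusted p = 0.0505, the highest of 31 alternatives, which reached down to 0.000261).

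The only gene model with a gene symbol, ACYPI009209-RA or Syt4, belonged to the higher group. Its symbol stands for synaptotagmin 4, a membrane protein of transport vesicles known from nerve cells of fruit flies and mammals. It had 8556, 7528 and 5875 in sexual females, 10860, 6256 and 7292 in winged and 7942, 4486 and 7082 in wingless males. It had 3379, 3521 and 1819 in winged and 964.3, 1411 and 688.4 in wingless asexual females. All sexual generation libraries exceeded all asexual ones, and winged asexual females again lay between. Its log2 difference from asexual females was 2.13 ± 0.26 in sexual females (limma adjusted p = 2.7e-05) and 2.10 ± 0.21 in males (limma adjusted p = 3.9e-06), and the difference between the sexes was −0.03 ± 0.26 (limma adjusted p = 0.92). Of the 61 identifiers matched to the gene table, Syt4 was the only one higher in both sexes (1.64%, against 11.3% of all gene models tested), and 11 were lower in both (18.0%, against 10.5%).

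**Figure D3:**
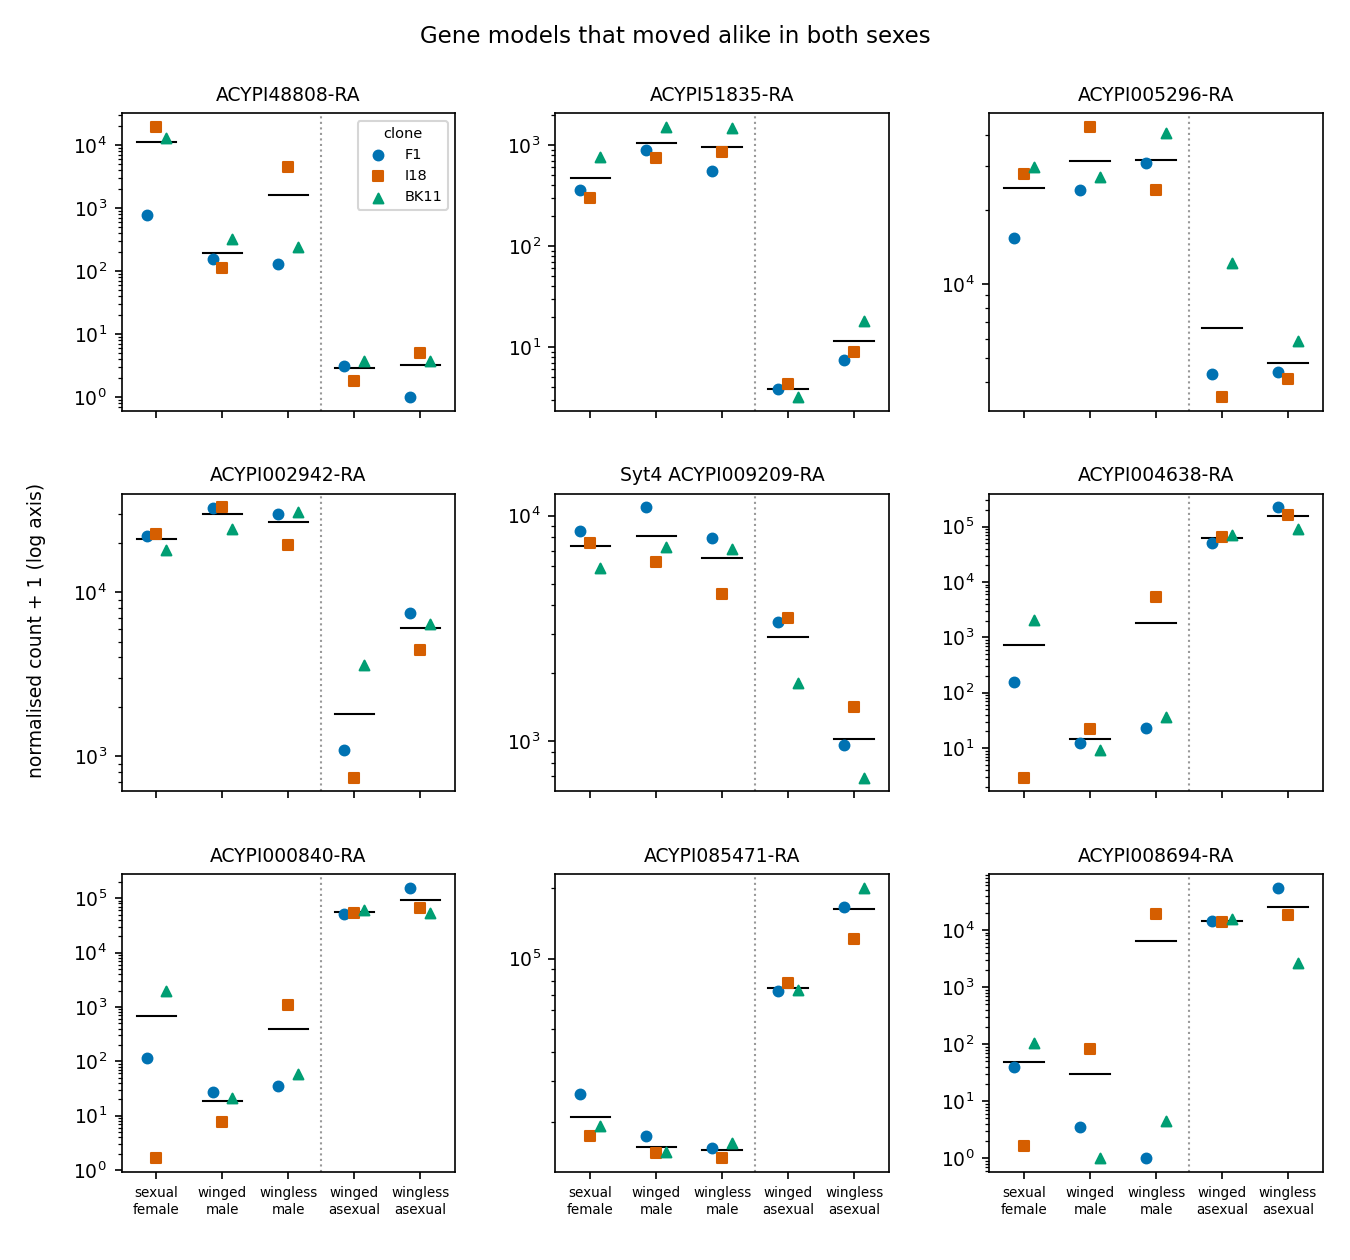
Normalised count + 1 (y axis, log scale) of the 9 gene models described above that moved alike in both sexes, for each library by morph and clone, with black bars at the mean of 3 clones and a dotted line between the generations. All 9 sexual generation libraries lie on one side of the 6 asexual libraries in every panel but ACYPI008694-RA, where the I18 wingless male stands at 19273.

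Both male morphs bore the shared direction in most cases. Of the gene models higher in both sexes, 1846 (80.4%) were called in sexual females, winged males and wingless males each taken alone, and of those lower in both 1668 (78.1%). These are 9.09% and 8.22% of the gene models tested. The count on the higher side was 710 without the 6 libraries holding markers of another morph, 1105 without the I18 wingless male and the 3 BK11 libraries of the sexual generation, and 1131 without clone BK11. On the lower side these counts were 1127, 1262 and 1045. Taken alone, winged males were called in 56.2% (31.3% higher and 24.9% lower) and wingless males in 51.1% (29.5% higher and 21.6% lower). Median log2 differences for the higher gene models were 2.22 for sexual females, 2.07 for winged males and 2.04 for wingless males. For the lower ones they were −2.62, −2.07 and −1.95. The raw values gave a narrower set. The 9 sexual generation libraries all lay above the 6 asexual ones for 1022 gene models (5.03% of those tested) and all below for 998 (4.92%), and 998 and 989 of these were called in both sexes.

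The shared direction was then looked at without shared libraries. Sexual females were set against wingless asexual females and winged males against winged asexual females, so that each comparison had its own asexual libraries and was matched for wings. The sexual female comparison called 5520 gene models higher (27.2%) and 4935 lower (24.3%), 51.5% in all, and the winged male comparison 5058 (24.9%) and 4178 (20.6%), 45.5% in all. Higher in both were 1482 (7.30% of those tested), which is 26.8% of the sexual female calls and 29.3% of the winged male calls. Over all gene models tested, 24.9% were higher in winged males and 27.2% in sexual females. The overlap on the higher side was thus near the shares over all gene models. Lower in both were 1588 (7.82%), which is 32.2% of the sexual female and 38% of the winged male calls. Over all gene models tested, 20.6% were lower in winged males and 24.3% in sexual females. Without the 6 libraries the counts were 644 higher and 1009 lower, without clone BK11 839 and 932, and without clone F1 971 and 1058. Opposite calls were also common, with 1383 of the gene models higher in sexual females lower in winged males (25.1%, against 20.6% of all tested). There were 664 the other way round (13.5% of those lower in sexual females, against 24.9% of all tested). Across gene models, which are not independent replicates, Pearson's r between the 2 sets of log2 differences was 0.27 and Spearman's rho 0.16 (n = 20301). The clones and the estimate of spread were still common to both comparisons. Of the gene models called alike here, 1373 of the 1482 higher and 1422 of the 1588 lower were also in the main lists.

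**Figure D4:**
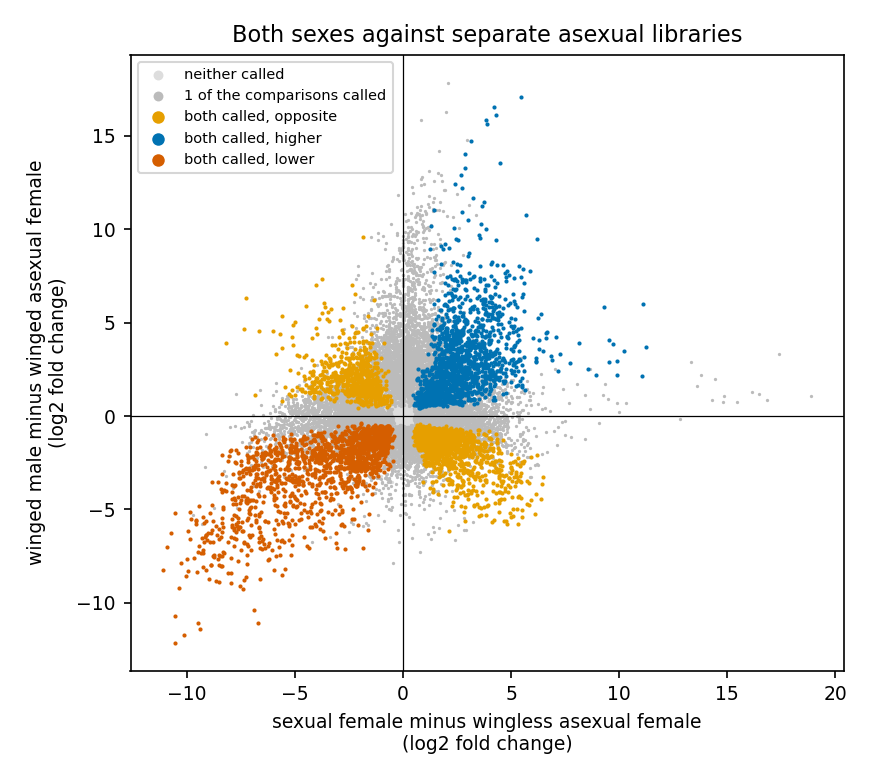
Log2 fold change of sexual females minus wingless asexual females (x axis) and of winged males minus winged asexual females (y axis), with 1 point per gene model and no library used on both axes. Blue points were called higher in both (1482), red points lower in both (1588) and orange points in opposite directions, and 1383 of these were higher in sexual females and lower in winged males.

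The clones gave a check in libraries that took no part in the calls. Gene models called alike from 2 clones were followed in the third clone, which has 1 library per morph. Of 1732 gene models called higher in both sexes from I18 and BK11, 87.9% were higher in the F1 sexual female and 97.1% in the F1 males, against 49.0% and 54.5% of all gene models tested. Of 1568 called lower, 98% were lower in the F1 sexual female and 98.3% in the F1 males, against 48.7% and 45.0%. In clone I18, both sexes moved the same way for 93.7% of 1708 higher and 92.5% of 1889 lower gene models, against 33.9% and 26.7% of all tested. In clone BK11 the shares were 94.1% of 1545 and 97.3% of 1495, against 31.1% and 26.4%. A 2-fold difference in the called direction in both sexes of the clone left out was reached by 59.2% to 81.5% of the gene models. Within each clone both sexes were set against the same asexual libraries. Libraries of both I18 and BK11 held traces of another morph, so this check cannot tell such traces from a generation difference.

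**Figure D5:**
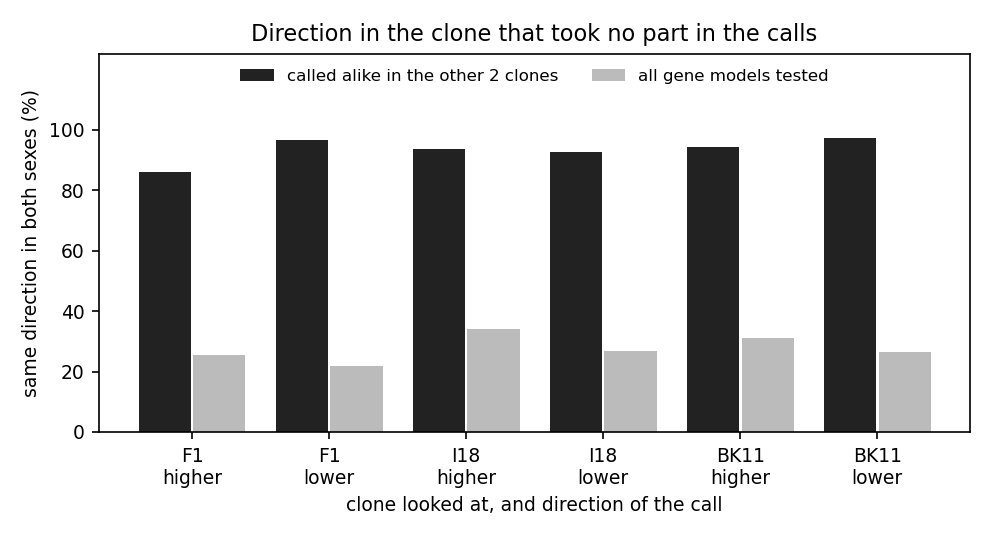
Share of gene models that moved in the stated direction in both sexes (y axis, percent) in 1 clone, for those called alike in the other 2 clones (dark bars) and for all gene models tested (grey bars). The dark bars reach 85.9% to 97.3% and the grey bars 21.7% to 33.9%.

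Within the main lists, 95.2% of the higher and 97.6% of the lower gene models moved in the called direction in both sexes of all 3 clones. A difference among clones in the size of the generation effect was called for 1 gene model of 20301 (0.00493%, limma F test), while 2137 (10.5%) had an unadjusted p under 0.05. With 1 library per morph in each clone, so few calls do not show that the effects were equal. The gene model called was ACYPI072521-RA. In clone F1 it had 24.4 in the sexual female, 107.7 and 71.4 in the winged and wingless male, against 0.715 and 0 in winged and wingless asexual females. In I18 it had 372.9, 694.3 and 549.0 in the sexual generation, against 1671 and 902.9, and in BK11 211.6, 509.6 and 671.4, against 715.3 and 486.2. The generation difference of this gene model on the log2 scale was 5.18 for F1, −1.35 for I18 and −0.74 for BK11 (limma adjusted p = 0.011). The next by p, ACYPI001315-RA, had −1.25 for F1, 2.17 for I18 and 0.93 for BK11 (limma adjusted p = 0.32). The call of ACYPI072521-RA was lost without any 1 of the asexual libraries, the F1 winged male, the I18 winged male or the F1 wingless male, and without clone F1, I18 or BK11.

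Wings in asexual females, a difference that the generation comparison averages out, were unevenly spread over these gene models. Of those lower in both sexes of the sexual generation, 28.2% were also lower in winged than in wingless asexual females and 0.703% higher, against 7.97% lower and 5.26% higher among all gene models tested (limma). Of those higher in both sexes, 15.0% were higher in winged asexual females and 2.39% lower. The median log2 wing difference was −0.87 for the lower and 0.53 for the higher gene models, against 0.00 over all tested. Winged asexual females, kept at the same day length and temperature as the wingless ones, thus lay on the side of the sexual generation more often than on the other. This contrast and the calls use the same asexual libraries and the same estimate of spread, though the wing difference cancels in the mean of the asexual morphs. With TMM scaling, which moved the median of all gene models to 0.11, 23.5% of the lower gene models were lower and 18.9% of the higher ones higher in winged asexual females. In males, whose wings follow from genotype, winged and wingless forms differed in 0.566% of the higher and 0.234% of the lower gene models, against 0.631% of all tested. Clones differed in 5.57% and 3.19% of them, against 7.05% of all tested (limma F test). The wing difference of asexual females was also uneven in some classes called in 1 sex. Of gene models lower in males alone, 21.8% were lower in winged asexual females and 0.473% higher. Of those higher in sexual females alone, 11.3% were higher and 2.57% lower. Of those higher in males alone, 4.25% were higher and 2.06% lower, with a median log2 wing difference of 0.21. Of those lower in sexual females alone, 6.46% were lower and 4.15% higher. Each share in these last classes was under that of all tested.

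Gene models called in sexual females and not in males numbered 2026 higher (9.98% of those tested) and 2121 lower (10.4%), of which 1504 and 1314 were generation calls. The sexes of the sexual generation differed by test in 90.2% and 89.6% of these classes, against 70.1% of all gene models tested. A call in 1 sex and not in the other favours such a difference, so these shares are no separate result. ACYPI088619-RA had 675603, 1099310 and 478822 in sexual females. Its other values were 0, 1.33 and 7999 in winged and 0, 0 and 3134 in wingless males, against 0, 1897 and 0 in winged and 0, 1.98 and 0 in wingless asexual females. It is itself one of the 10 sexual female markers, and its highest values outside sexual females lay in the BK11 males and the I18 winged asexual female. The log2 difference was 17.36 ± 2.97 in sexual females (limma adjusted p = 0.00035) and 2.22 ± 2.43 in males (limma adjusted p = 0.44).

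ACYPI21967-RA, with 95336, 235652 and 76744 in sexual females, is another of these markers and had 2193 in the BK11 winged male, 620.6 in the BK11 wingless male and 372.8 in the I18 winged asexual female. Its log2 difference was 15.45 ± 2.47 in sexual females (limma adjusted p = 0.00021) and 2.17 ± 2.02 in males (limma adjusted p = 0.37). Lower in sexual females alone were ACYPI081833-RA, with 7.49, 1.28 and 1.95 in sexual females, and ACYPI008608-RA, with 0.937, 0 and 3.25. Both were well detected in most other libraries. ACYPI081833-RA ranged from 561.9 to 25081 in males and from 219.3 to 7660 in asexual females, and ACYPI008608-RA from 46.5 to 3139 and from 29.7 to 2494. For both the I18 wingless male was the highest library of all and the BK11 wingless asexual female the lowest of the asexual ones. The log2 difference in sexual females was −9.06 ± 1.01 for ACYPI081833-RA and −8.53 ± 1.35 for ACYPI008608-RA (limma adjusted p = 1.3e-05 and 0.00019), and in males −0.52 ± 0.82 and −2.23 ± 1.10 (limma adjusted p = 0.60 and 0.096).

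Males alone supplied the largest class, with 3977 gene models higher (19.6% of those tested) and 1693 lower (8.34%). The higher ones were of low abundance, their median mean count being 52.8, while that of the lower ones was 1610. ACYPI065067-RA had 108165, 85652 and 226808 in winged and 75017, 40243 and 104769 in wingless males. It had 0, 178.8 and 104.2 in sexual females, and 0 to 15.0 in asexual females. The fitted log2 difference was 14.78 ± 1.0 in males (limma adjusted p = 1.2e-07) and 3.01 ± 1.23 in sexual females (limma adjusted p = 0.055). ACYPI002387-RA was similar, with 30993 to 109393 in males, 0, 95.5 and 67.0 in sexual females and 0 to 85.3 in asexual females (13.86 ± 0.90 in males, limma adjusted p = 8.6e-08).

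Lower in males alone, ACYPI37262-RA had 0, 0 and 2.72 in winged and 0, 2.83 and 3.47 in wingless males, at most 3 reads in any male library. It had 103.0, 161.5 and 143.9 in sexual females and 193.8 to 580.6 in asexual females. Set against asexual females, its log2 difference was −7.30 ± 0.41 in males (limma adjusted p = 2.6e-08) and −1.22 ± 0.50 in sexual females (limma adjusted p = 0.055). ACYPI072071-RA was at 0 to 113.2 in males, 194.8 to 880.1 in sexual females and 633.6 to 1015 in asexual females (−6.90 ± 0.77 in males, limma adjusted p = 8.8e-06), with the I18 wingless male the highest of the males.

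Finally, 2479 gene models (12.2% of those tested) moved in opposite directions in the sexes, 1615 of them higher in sexual females and lower in males and 864 the reverse. Only 480 of these were called in the average over the sexes. ACYPI065989-RA was the most abundant example named here. It had 232.3, 119.8 and 408.8 in sexual females and 117955 to 280400 in males, against 1924 to 4174 in winged and 20498 to 55314 in wingless asexual females. Asexual females thus lay between the sexes, and the generation difference was −0.49 ± 0.30 (limma adjusted p = 0.18). On the log2 scale it differed by −5.36 ± 0.39 in sexual females (limma adjusted p = 5.9e-07) and 4.38 ± 0.32 in males (limma adjusted p = 2.1e-07).

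ACYPI48691-RA, with 0, 3.20 and 2.60 in sexual females, had 43.5 to 5878 in males and 7.87 to 87.3 in asexual females (−4.04 ± 0.84 and 4.30 ± 0.69, limma adjusted p = 0.0014 and 0.00016). Of those higher in sexual females, ACYPI088094-RA had 1267, 135.8 and 417.3 there and 0 to 5.66 in males, against 15.2 to 62.3 in asexual females (4.05 ± 0.74 and −4.01 ± 0.60, limma adjusted p = 0.00055 and 9.8e-05). ACYPI34702-RA had 10504 to 17869 in sexual females and 0 to 2522 in males, against 418.8 to 827.4 in asexual females (4.54 ± 1.62 and −4.36 ± 1.32, limma adjusted p = 0.031 and 0.012), and its value in the I18 wingless male, 2522, exceeded every asexual value. Its calls were the least stable of those named: 10 of 31 alternatives lost it in sexual females, with adjusted p from 0.00259 to 0.199, and 3 of 31 in males, with adjusted p from 6.77e-05 to 0.176 (limma, edgeR or DESeq2). The count of opposite calls was 936 without clone F1, 1400 without clone BK11 and 2281 without the 6 libraries.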

How the data were processed

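The members and lists were chosen with earlier results of these data known. Per the labels, whole bodies of 5 morphs from 3 clones gave 15 libraries, sequenced on an Illumina machine. The deposited signal is a normalised count, a read count per gene model divided by a size factor, for 20657 gene models. The submitters' processing notes name DESeq2, with no version. How reads were aligned and counted, with what strand setting, build and annotation, is not given in the sources used here, so reads of near-identical or overlapping gene models may be split or shared.

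Every value was a whole multiple of 1 read of its library within 0.001 of a read, and recomputed DESeq2 size factors times the value per read gave 0.999 to 1.0, so whole reads were recovered. Tests took in gene models reaching a normalised count of 10 in 3 or more libraries, which left out 356. log2(value + 1) was fitted with limma 3.58.1 in R 4.3.3 with a mean-dependent prior variance, 5 morph means and clone as a block (8 residual degrees of freedom). The generation contrast weighted sexual females and males equally. Libraries were paired by clone: across gene models, deviations from the morph mean had r of 0.13 to 0.64 in 30 pairs within a clone and −0.48 to 0.11 in 60 pairs between clones. The test for unequal effects among clones added a clone by generation term.

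Gene models were named by rule: a mean normalised count of at least 100, the same direction in all 3 clones in the sexes concerned, and then the 2 largest or most abundant per class and direction, or the 2 smallest p for clone dependence, where no direction was asked for. The lists by product name were not used, since the gene table holds no product names. The rule set for sexual female markers found 1 gene model, ACYPI48808-RA, so the marker sets given, all calibrated on clone F1, were chosen after seeing the data. Sexual female and male markers had a mean of at least 10000 in their own sex and at most 10 in the other F1 libraries. Asexual markers had at least 10000 in every asexual library and at most 100 in F1 males. Alternatives were no block, other pseudocounts, filters, scalings and prior variances, edgeR 4.0.16 and DESeq2 1.42.0 on recovered reads, other weights and morph choices, and left-out libraries or clones. Simulated counts with known changes were used to test the procedure.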

Additional observations from a re-analysis of the deposited data

Results flagged for a closer look

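Among the 9 named gene models that moved alike, 18 groups of 6 or 9 libraries were searched for a library set apart from the rest by a gap test, and 3 were found. The test flags about 1 group in 20 by chance when all values come from 1 normal population. These groups mix morphs, so that rate need not hold for them. The F1 wingless asexual female stood apart from the other asexual females for ACYPI000840-RA, at 153886. The F1 sexual female stood apart within the sexual generation for ACYPI085471-RA, at 26356. The I18 wingless male stood apart within the sexual generation for ACYPI008694-RA, at 19273.

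The effect of generation differed between the sexes, by the limma test of males minus sexual females, for most named gene models. Several were chosen for that difference. Among those that moved alike, the log2 difference of males minus sexual females was −4.25 for ACYPI48808-RA, 1.10 for ACYPI51835-RA and −0.42 for ACYPI085471-RA. Among those called in 1 sex it was −15.13 for ACYPI088619-RA, −13.28 for ACYPI21967-RA, 11.78 for ACYPI065067-RA, 11.43 for ACYPI002387-RA, 8.54 for ACYPI081833-RA, 6.30 for ACYPI008608-RA, −6.08 for ACYPI37262-RA and −6.24 for ACYPI072071-RA. Among those with opposite directions it was −8.90 for ACYPI34702-RA, −8.06 for ACYPI088094-RA, 9.75 for ACYPI065989-RA and 8.34 for ACYPI48691-RA. The generation effect differed among the clones for ACYPI072521-RA (limma adjusted p = 0.011).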

How the results depend on the processing

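No named difference changed sign under any of the 30 or 31 alternatives run for it, and no gene model called alike in both sexes was called alike in the other direction. The named calls held in all alternatives, save those described for ACYPI008694-RA, ACYPI34702-RA and ACYPI072521-RA. The cause was not tested for any of the changes that follow, and fewer libraries also leave fewer degrees of freedom.

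Without the clone block, 2035 gene models were higher in both sexes (2022 of them in the main list) and 1987 lower (1975). With edgeR the counts were 2082 and 2342, and with DESeq2 2714 and 2299. Leaving out a library gave 1835 to 2376 higher and 1881 to 2202 lower, and leaving out a clone 1545 to 1732 and 1495 to 1889. Over these same left-out libraries and clones, opposite calls ranged from 936 to 2950, and they numbered 1400 without BK11, 1035 with wingless morphs alone and 1486 at 2-fold or more. When 1 library or 1 clone was left out, higher calls with separate asexual libraries ranged from 839 to 1667 and lower ones from 932 to 1706, with 971 and 1058 without F1. They were 1183 and 1757 with edgeR, and 1764 and 1790 with DESeq2. Calls in all 3 sexual morphs ranged from 1131 to 1958 and from 1045 to 1767 when 1 library or 1 clone was left out, and were 1692 and 1775 with edgeR and 2216 and 1800 with DESeq2. Without 4 libraries 1105 were higher in all 3. Without 6 libraries holding markers of another morph, 4172 were higher by generation, 1055 higher in both sexes, 644 higher and 1009 lower with separate asexual libraries, and 710 higher in all 3 morphs. The count of gene models with unequal effects among clones ranged from 0 to 1 when 1 library or 1 clone was left out, and was 0 without the BK11 males. It was not run without the 4 or 6 libraries, without the block, with other pseudocounts or prior variances, or with edgeR or DESeq2. Depth limits gene models near 0, where 3 reads correspond to normalised counts of up to 5.95.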

Other observations

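Clone differences were unevenly spread over the classes. Among the 3573 gene models called in neither sex, 16.1% differed among clones (limma F test), against 0.681% of the 1615 that were higher in sexual females and lower in males. This is a description, since the classes were defined on the same libraries.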
